A study of Mus musculus with 45 samples.

Results

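Late mouse reprogramming cultures kept in serum with doxycycline were compared with cultures moved to the serum-free medium 2i-LIF. The comparison used 10 of the 45 libraries of the series, chosen by their labels alone as 5 pairs with the same reprogramming system, day and sequencing chemistry in both media. The pairs were OKMS at day 14 in R9, OKMS at day 20 in R9, OKS at day 20 in R9, OKMS at day 18 in R10 and OKS at day 18 in R10. Each list of 5 values below follows that order. The study turned neural progenitor cells into induced pluripotent stem cells and sequenced cDNA with Oxford Nanopore long reads. All 10 libraries came from progenitors derived from the embryonic stem cell line O4G, which carries an Oct4-GFP reporter, and stably transfected with doxycycline-inducible factors. The genotypes read OKMS-Luciferase-AS and OKS-Luciferase-AS, and the sets differ in name by Myc. Whether a line was a single clone was not stated. FBS-LIF with dox held 15% fetal bovine serum, LIF and 1 µg/mL doxycycline. 2i-LIF held 20 ng/mL LIF, 3 µM CHIR99021 and 1 µM PD0325901 in N2B27, and its recipe lists neither serum nor doxycycline. The R9 cultures were moved to it at day 6, and the labels of the R10 cultures give no day for the move. Neither do they say whether doxycycline was kept. By the recipes, serum, doxycycline with the transgenes, and the inhibitors changed together between the arms, so their parts in any difference cannot be told apart. Embryonic stem cells and neural progenitors serve below as reference levels. The former are wild-type cells in 2i-LIF, of lines O4G and R1 in R9 (2 libraries) and of O4G, R1 and R1-Clone3 in R10 (7). The latter are O4G-derived cells in NPC medium, 4 libraries per chemistry, and each mean combines wild-type, OKMS and OKS genotypes.

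As background, PD0325901 blocks MEK, the kinase that activates ERK, and ERK signalling moves pluripotent cells toward differentiation. CHIR99021 blocks GSK3 and so mimics Wnt signalling, while LIF activates STAT3. Mouse embryonic stem cells in this medium are known for a uniform naive state with low DNA methylation, whereas in serum they are a mixture of naive cells and cells closer to lineage commitment.

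The 2i-LIF libraries held 566599 to 929564 reads on genes and the FBS-LIF libraries 673098 to 1390424, so that a single read was worth between 0.719 and 1.77 CPM (read counts scaled to a common library total). Reads on mitochondrial genes made up 0.443 to 0.557% in R9, which is direct cDNA of poly(A) RNA, and 1.68 to 2.16% in R10, which is PCR-amplified cDNA of total RNA. The summed level of 9 pluripotent cell markers was 10079 to 15933 CPM in 2i-LIF and 6232 to 16041 CPM in FBS-LIF with dox, so these markers were present in both arms. The labels do not say whether libraries came from separate cultures, and the OKMS libraries of days 14 and 20 may follow a single timeline, so p-values measure only the spread among these samples.

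Of 14935 genes tested, 888 rose in 2i-LIF (5.95%) and 944 fell (6.32%), at an adjusted p under 0.05 and a difference of at least 1 on the log2(CPM + 1) scale (limma, paired). The median difference of all genes was -0.03. All differences below are 2i-LIF minus FBS-LIF with dox on that scale with their SE, and each mean is in CPM with its SD over n = 5 libraries. In bulk RNA, fewer cells that express a gene cannot be told apart from less of its RNA per cell. Within R9 alone 1166 of 15482 genes passed (7.53%) and within R10 alone, with 2 pairs, 188 of 15446 (1.22%). Of the 1832 genes called over all pairs, 1581 had the same sign in all 5 pairs, as did 22.7% of all genes tested. The arms did not overlap for 1073 of the called genes, and for 9.34% of all genes tested. On the reads recovered from the CPM steps edgeR called 1932 genes (12.9%), 1691 of them shared with limma, and DESeq2 1242 genes (8.32%), 1223 of them shared. The effect of the medium differed between chemistries for 0 genes in limma, with 560 genes at an unadjusted p under 0.05 and 4 in edgeR.

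Of the 4 reprogramming factors, Myc fell and the other 3 did not pass the test. In 2i-LIF Myc read 1.22, 4.30, 2.33, 3.53 and 1.56 CPM, and in FBS-LIF with dox 77.0, 93.6, 49.6, 5.94 and 52.5 CPM. All 2i-LIF libraries lay below all FBS-LIF libraries, and OKMS at day 18 was far lower than the other FBS-LIF libraries. The mean of Myc (chromosome 15, 61985391 to 61990374, mm10) fell from 55.7 ± 33.2 to 2.59 ± 1.30 CPM, a difference of -3.64 ± 0.52 with an adjusted p of 1.12e-04. Pou5f1, which encodes Oct4, gave 1344, 1302, 1077, 896 and 953 CPM in 2i-LIF and 873, 1457, 1393, 889 and 828 CPM in FBS-LIF with dox. The arms overlapped, with means of 1114 ± 202 and 1088 ± 309 CPM and an adjusted p of 0.857. Klf4 averaged 97.3 ± 29.5 against 69.9 ± 40.1 CPM (adjusted p 0.0599) and Sox2 92.5 ± 15.9 against 99.0 ± 34.3 CPM (adjusted p 0.945). Counting may place transgene transcripts on these same 4 genes, and Pou5f1 has near-identical copies, so the values need not be those of the endogenous loci. OKS cells carry no Myc transgene by name and their FBS-LIF libraries held 49.6 and 52.5 CPM of Myc.

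Naive pluripotency factors, the transcription factors and partners that hold the preimplantation-like state, were higher in 2i-LIF. Of 16 tested, 10 rose and 0 fell, with a median difference of 1.26 against -0.03 for all genes. This list and those below were chosen with earlier results of these data known, so their counts and medians only describe the members. Each count stands beside the 5.95% of all genes tested that were called higher and the 6.32% called lower. Some genes belong to more than 1 list. Nanog, a core factor of that state, read 1247, 1222, 1008, 1179.6 and 1361 CPM in 2i-LIF and 303, 250, 283, 269 and 206 CPM in FBS-LIF with dox. The lowest 2i-LIF library stood well above the highest FBS-LIF library, and each arm was tight. Nanog rose from 262 ± 36.8 to 1204 ± 128 CPM, a difference of 2.20 ± 0.15 (adjusted p 8.87e-08), although near-identical copies of it exist. Prdm14, a repressor of differentiation and of DNA methyltransferase genes, read 57.4, 46.2, 59.4, 47.6 and 51.6 CPM in 2i-LIF against 6.33, 6.16, 8.62, 4.45 and 5.12 CPM. It rose by a difference of 2.93 ± 0.29 (adjusted p 3.18e-06) with no overlap. Fbxo15, a classical reporter gene of reprogrammed cells, read 369, 307, 384, 213 and 238 CPM against 86.5, 119, 50.3, 46.0 and 25.6 CPM. The arms did not overlap, and OKS at day 18 was the lowest FBS-LIF library. Its difference was 2.34 ± 0.22 (adjusted p 2.08e-06).

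Among the other naive factors, Tfcp2l1, a target of LIF signalling, rose from 30.5 ± 11.6 to 125 ± 21.1 CPM. Zfp42, known as Rex1, rose from 469.6 ± 182 to 1098 ± 126 CPM, and Tcl1, a co-activator of Akt kinase, from 56.3 ± 14.2 to 158 ± 43.1 CPM. Esrrb, an orphan nuclear receptor, rose from 123 ± 30.9 to 253 ± 33.2 CPM with a difference of 1.06 ± 0.18. Without the OKMS day 14 pair the difference of Esrrb was 0.97 and without the OKS day 18 pair 0.93, under the limit of 1. Dppa3 gave 37.7 ± 19.4 against 36.9 ± 20.3 CPM and did not pass (adjusted p 0.886).

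Genes known as dependent on 2i in stem cells had the highest median of the lists examined. Given how the lists were chosen, this rank is a description only. Of 10 such ground state genes tested, 9 rose, with a median of 2.96. Prdm14, Tcl1 and Klf2 among the 9 are also among the naive factors that rose, so the lists are not separate. Spic, an Ets-family transcription factor, read 76.9, 86.0, 76.8, 106 and 106 CPM in 2i-LIF and 0, 1.23, 0, 1.48 and 0 CPM in FBS-LIF with dox. It stood at a few reads in total in serum, in 3 of the 5 libraries at 0. The 337 reads in 2i-LIF against 2 in FBS-LIF with dox gave a ratio of 203 (95% exact interval 55.9 to 1687, counting error only), and the fitted difference was 6.00 ± 0.38 (adjusted p 2.58e-08). Crxos, a homeobox gene, read 371, 245, 263, 307 and 359.8 CPM against 14.8, 8.62, 2.87, 29.7 and 10.2 CPM. Every 2i-LIF library was higher than every FBS-LIF library, among which OKMS at day 18 was the highest. Its difference was 4.73 ± 0.29 (adjusted p 2.58e-08). Crygd, a crystallin gene with close copies among which reads could be split, averaged 40.6 ± 10.6 against 0.355 ± 0.5001 CPM. Tuba3a, a tubulin gene with the same limit, rose from 20.8 ± 12.9 to 413 ± 109 CPM. The embryonic stem cells held Spic at 61.0 CPM in R9 and 43.2 CPM in R10 and Crxos at 331 CPM in R9 and 391 CPM in R10.

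**Figure D1:**
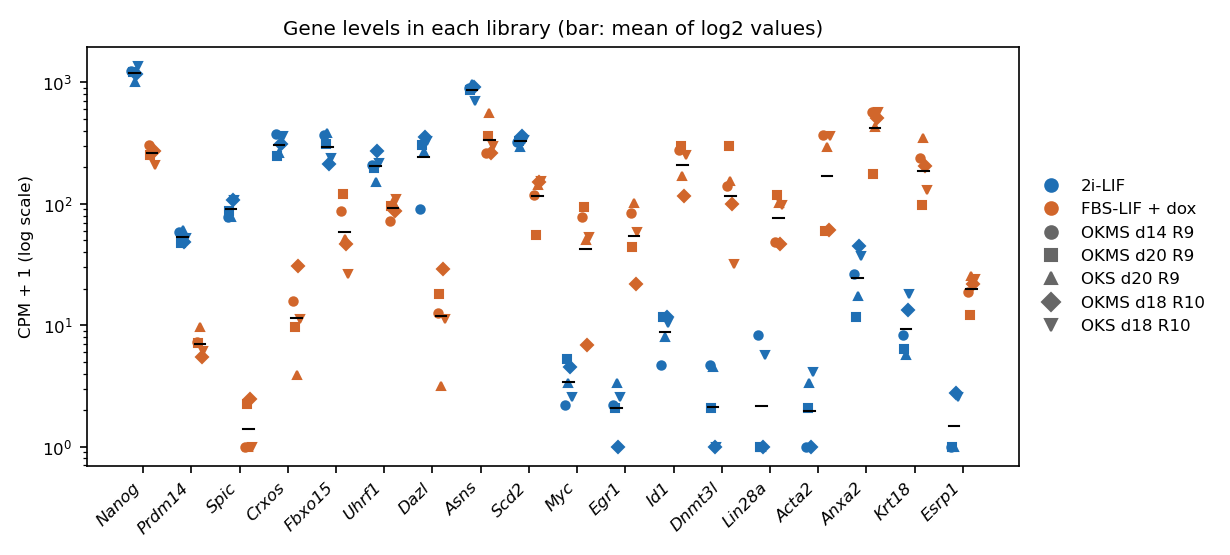
Levels of 18 genes in each of the 10 libraries, as CPM + 1 on a log axis, with colour for the medium, marker shape for the pair and a bar at the mean of the log2 values of each arm. The arms separate for all 18 genes, and Myc in FBS-LIF with dox has 1 library (OKMS d18 R10, 5.94 CPM) far below the other 4.

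The protein-coding genes with the largest rises also came from other families. Calcoco2, an autophagy receptor, rose from 22.2 ± 16.9 to 421 ± 149 CPM. Aqp3, a water and glycerol channel, rose from 27.4 ± 32.05 to 382 ± 89.4 CPM, and Bhmt, which methylates homocysteine, from 0.898 ± 0.574 to 43.9 ± 15.4 CPM. Gm13128 was at 0 in all 5 FBS-LIF libraries and averaged 32.1 ± 6.12 CPM in 2i-LIF, which is at least 49.3-fold higher with the serum arm set at 3 reads in all (0.652 CPM). Elobl averaged 33.5 ± 9.78 against 0.719 ± 1.01 CPM, Cryge 35.3 ± 9.29 against 0.898 ± 0.574 CPM and Xlr3c 57.8 ± 23.8 against 3.54 ± 5.05 CPM. The last 2 belong to families of near-identical copies. For genes near 0 in an arm, here and below, the fitted difference depends on the pseudocount of 1 and is no bound on the fold.

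Formative and primed genes, which mark the step from naive cells toward the postimplantation epiblast, were lower in 2i-LIF in part. Of 14 tested, 8 fell and 0 rose, with a median of -1.84. Otx2, Zic2, Zic5, Foxd3, Sall2 and Sfrp2 did not pass. Utf1, a chromatin factor of pluripotent cells, read 142, 119, 112, 70.5 and 50.1 CPM in 2i-LIF and 621, 904, 831, 292 and 471 CPM in FBS-LIF with dox. The arms did not overlap, and the R10 libraries of both arms were lower than the R9 libraries. Its difference was -2.63 ± 0.18 (adjusted p 8.87e-08). Car4, a membrane-bound carbonic anhydrase, fell from 34.8 ± 16.8 to 0.666 ± 0.914 CPM. General pluripotency genes split, with 4 higher and 4 lower of 17 tested and a median of -0.03. Lin28a, an RNA-binding protein that blocks let-7 maturation, read 7.33, 0, 0, 0 and 4.69 CPM in 2i-LIF and 47.5, 117, 101, 46.0 and 97.3 CPM in FBS-LIF with dox. It had no read in 3 of the 2i-LIF libraries, and no FBS-LIF library came near them. Its difference was -5.15 ± 0.52 (adjusted p 3.94e-06), and the embryonic stem cells stood at 5.62 CPM in R9 and 11.6 CPM in R10. Gdf3, a TGF-beta family ligand, rose from 74.2 ± 40.1 to 159 ± 19.2 CPM.

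Targets of ERK, the kinase downstream of the inhibited MEK, were lower. Of 20 tested, 14 fell and 0 rose, with a median of -2.03. Myc, the reprogramming factor given above whose counts may hold transgene reads, is among the 14. Egr1, an immediate early transcription factor, read 1.22, 1.07, 2.33, 0 and 1.56 CPM in 2i-LIF and 83.4, 43.1, 99.9, 20.8 and 57.6 CPM in FBS-LIF with dox. No 2i-LIF library exceeded 2.33 CPM, and the lowest FBS-LIF library, OKMS at day 18, held 20.8 CPM. The difference of Egr1 was -4.71 ± 0.37 (adjusted p 2.91e-07). Spry4, a feedback inhibitor of receptor tyrosine kinase signalling, read 1.22, 0, 0, 7.05 and 1.56 CPM against 45.4, 61.6, 41.0, 13.4 and 115 CPM. Dusp6, a phosphatase that inactivates ERK, read 0, 3.22, 1.16, 7.05 and 6.26 CPM against 74.9, 33.2, 49.6, 7.42 and 125 CPM. Both genes came closest between arms in the OKMS day 18 pair, where Dusp6 differed by under 1 CPM. Over all pairs the differences were -4.42 ± 0.59 (adjusted p 6.31e-05) and -3.60 ± 0.61 (adjusted p 5.69e-04). Within R10 alone neither passed. Dusp4, another ERK phosphatase, fell from 42.6 ± 19.8 to 2.61 ± 2.74 CPM. The immediate early gene Fos fell from 49.2 ± 25.9 to 2.74 ± 2.01 CPM and Phlda1 from 70.6 ± 31.99 to 7.42 ± 5.10 CPM. Per pair, the median of this list was -3.001, -1.67, -2.78, -0.65 and -1.58.

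Id genes, whose proteins block basic helix-loop-helix factors and which are targets of BMP signals such as those in serum, were lower in part. Of 14 Id and BMP genes tested, 4 fell (Id1, Id2, Id3 and the ligand Bmp4) and 0 rose, with a median of -0.52, and Id4 did not pass. The median was 0.16 in the OKMS day 20 pair and below 0 in the other 4. Id1 read 3.66, 10.7, 6.98, 10.6 and 9.39 CPM in 2i-LIF and 279, 296, 167, 116 and 252 CPM in FBS-LIF with dox. The highest 2i-LIF library was under 11 CPM and the lowest FBS-LIF library above 115 CPM. Id1 fell from 222 ± 77.1 to 8.27 ± 2.98 CPM, a difference of -4.58 ± 0.29 (adjusted p 2.58e-08), and the embryonic stem cells held 8.46 CPM in R9 and 10.8 CPM in R10. Id2 fell from 172 ± 60.2 to 7.68 ± 2.17 CPM and Id3 from 379.7 ± 284 to 45.9 ± 29.5 CPM. Wnt target genes, known readouts of GSK3 inhibition, had 1 higher and 1 lower of 13 tested, with a median of -0.27 that ranged from -1.01 to 0.71 over the pairs. LIF and STAT3 genes also had 1 higher (Tfcp2l1) and 1 lower of 13, and Nodal pathway genes 1 higher (Gdf3) and 2 lower of 14. These counts stand beside the 12.3% called among all genes, and nothing is read from them about the lists.

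**Figure D2:**
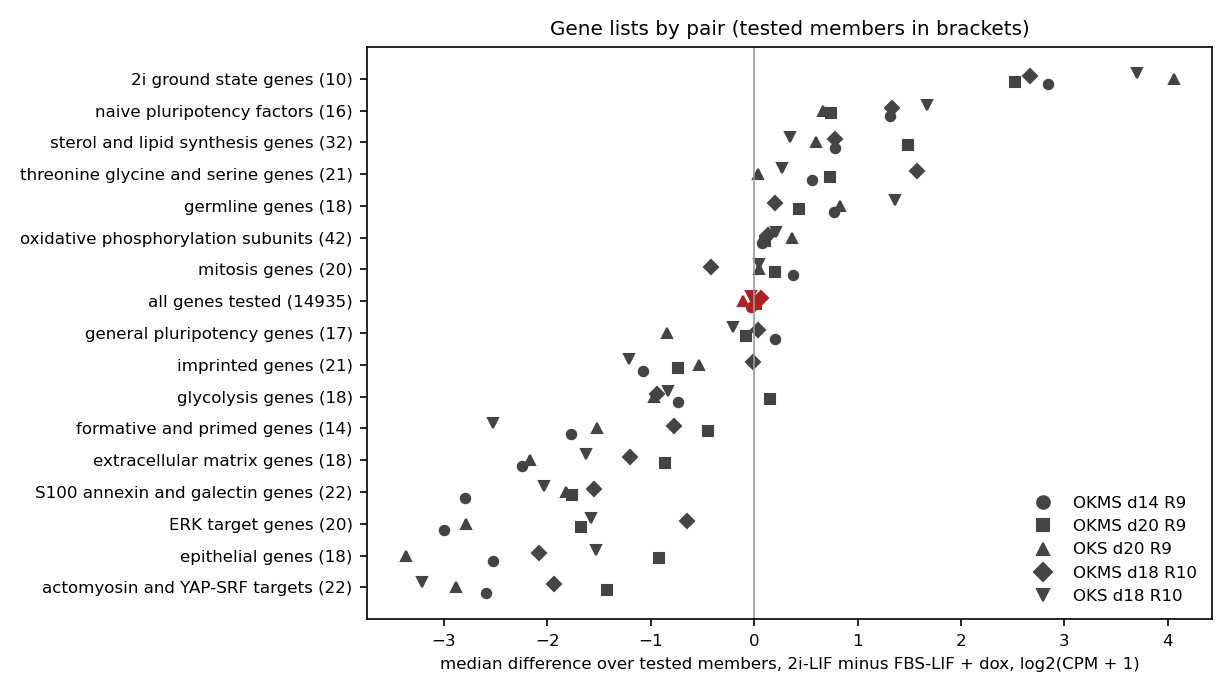
Median difference of the tested members of 16 gene lists, and of all 14935 genes tested in red, in each of the 5 pairs, on the log2(CPM + 1) scale. Ground state genes lie at 2.53 to 4.05 and actomyosin genes at -3.21 to -1.42, while the median of all genes stays between -0.11 and 0.07.

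The genes for new DNA methylation fell and a gene for its maintenance rose. Of 12 DNA methylation genes tested, Dnmt3a, Dnmt3b and Dnmt3l fell and Uhrf1 rose, with a median of -0.40. Dnmt3l, a catalytically inactive partner of the de novo methyltransferases, read 3.66, 1.07, 3.49, 0 and 0 CPM in 2i-LIF and 138, 300.4, 152, 97.9 and 30.7 CPM in FBS-LIF with dox. It was nearly silent in 2i-LIF, and in serum OKMS at day 20 was highest and OKS at day 18 lowest. The difference of Dnmt3l was -5.76 ± 0.39 (adjusted p 5.56e-08). Dnmt3b fell from 125 ± 89.6 to 21.6 ± 8.57 CPM and Dnmt3a from 62.2 ± 36.1 to 18.3 ± 7.42 CPM. Uhrf1, which guides the maintenance methyltransferase to newly copied DNA, read 209, 197, 150.1, 272 and 216 CPM against 70.7, 94.8, 103, 86.1 and 108 CPM. It was higher in all pairs with no overlap, least so in the OKS day 20 pair, and its difference was 1.16 ± 0.18 (adjusted p 3.56e-04). Dnmt1, that maintenance methyltransferase, averaged 145 ± 21.3 against 122 ± 18.5 CPM (adjusted p 0.406).

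Germline genes, several of which are silenced by promoter DNA methylation in somatic cells, rose in part. Beside the 5.95% of all genes tested that rose, 5 of 18 rose here (Dazl, Hormad1, Stk31, Stra8 and Rpl10l) and 0 fell, with a median of 0.72. The promoters of 2 of them are shown because they hold CACGTG, the E-box bound by several bHLH and MYC-family factors, in capitals (RefSeq, GRCm38.p6, forward strand, 300 bases around the start). Hormad1 lies at chr3:95559427-95559726 with matches starting at -57 and -20 from the start, and Stk31 at chr6:49395289-49395588 with a match at -55.
Hormad1 promoter: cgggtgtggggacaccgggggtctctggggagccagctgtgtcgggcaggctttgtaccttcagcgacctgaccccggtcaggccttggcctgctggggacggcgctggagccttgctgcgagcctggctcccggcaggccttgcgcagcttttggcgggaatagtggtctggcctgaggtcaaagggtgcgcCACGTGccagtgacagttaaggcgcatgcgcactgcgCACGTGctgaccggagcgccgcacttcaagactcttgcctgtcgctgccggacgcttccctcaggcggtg
Stk31 promoter: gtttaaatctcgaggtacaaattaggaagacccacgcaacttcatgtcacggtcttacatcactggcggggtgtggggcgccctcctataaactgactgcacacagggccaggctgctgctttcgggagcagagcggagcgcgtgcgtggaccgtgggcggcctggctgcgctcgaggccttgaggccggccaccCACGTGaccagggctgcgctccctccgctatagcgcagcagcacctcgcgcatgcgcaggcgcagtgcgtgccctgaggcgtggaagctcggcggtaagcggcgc
The motif reads the same on both strands. It was present in 9 of the 16 germline genes with a promoter entry, or in 60% of their 20 promoters, against 7.15% of all 32851 promoters of that length and 9.95% of those of tested genes. Dazl, Rpl10l and Stra8 had no match in this window, and 7 of the 9 genes with a match did not pass the expression test or were not tested. A match is a description of the letters only.

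Dazl, an RNA-binding protein of germ cells, read 89.2, 306, 268, 354 and 327 CPM in 2i-LIF and 11.6, 17.2, 2.16, 28.2 and 10.2 CPM in FBS-LIF with dox. OKMS at day 14 was the lowest 2i-LIF library, still above every FBS-LIF library. Its difference was 4.36 ± 0.36 (adjusted p 4.21e-07), and the progenitors held 0.334 CPM in R9 and 0 CPM in R10. Hormad1, a protein of meiotic chromosome axes, read 44.0, 64.5, 45.4, 123 and 73.5 CPM against 23.2, 34.5, 9.34, 28.2 and 7.68 CPM. Stk31, a germ cell protein with a Tudor domain, read 15.9, 37.6, 38.4, 14.1 and 17.2 CPM against 3.17, 7.39, 5.03, 1.48 and 0 CPM. Neither gene overlapped between arms, with differences of 1.83 ± 0.30 (adjusted p 5.25e-04) and 2.74 ± 0.43 (adjusted p 2.80e-04). Rpl10l, a testis copy of a ribosomal protein gene, rose from 71.2 ± 31.9 to 276 ± 45.4 CPM. Of 9 two-cell-like genes tested, 2 rose, against 3 after quantile normalization or in edgeR and 4 after median centring. Among all genes tested, 5.95% rose. The median of the list was -0.74 in the OKMS day 20 pair and 0.21 to 3.58 in the other pairs. Zscan4c was among those that rose, with 23.7 ± 24.0 against 3.21 ± 4.04 CPM, a member of a family of near-identical copies whose level was highest in the OKS day 18 library of 2i-LIF at 65.7 CPM.

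Contractile and cytoskeletal genes targeted by SRF and YAP had the lowest median of the lists examined. The lists were chosen with earlier results known, so this rank, too, is a description only. Of 22 actomyosin genes tested, 15 fell and 0 rose, with a median of -2.59. Acta2, smooth muscle actin, read 0, 1.07, 2.33, 0 and 3.13 CPM in 2i-LIF and 366, 59.1, 292, 59.4 and 362 CPM in FBS-LIF with dox. The 2i-LIF libraries held at most 3.13 CPM, and among the serum libraries both OKMS libraries of days 18 and 20 were far lower than the other 3. Acta2 fell from 228 ± 157 to 1.31 ± 1.40 CPM, a difference of -6.44 ± 0.41 (adjusted p 2.58e-08). Progenitors held it at 1.24 CPM in R9 and 2.12 CPM in R10 and embryonic stem cells at 0 CPM in R9 and 0.164 CPM in R10. Tagln, an actin-binding protein of smooth muscle, fell from 227 ± 150.1 to 4.21 ± 4.30 CPM. Tpm1, a tropomyosin, fell from 675 ± 362 to 83.3 ± 27.8 CPM. The secreted YAP targets Ccn1 and Ccn2 fell from 233 ± 119.8 to 18.7 ± 5.82 CPM and from 199 ± 108 to 33.8 ± 15.9 CPM, and the matrix glycoprotein Thbs1 of the same list from 43.7 ± 30.4 to 0.978 ± 1.42 CPM.

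The promoters of Myl9 and Cnn2 from this list are printed for the CArG box, the element bound by SRF, in capitals (RefSeq, GRCm38.p6, forward strand). Myl9 lies at chr2:156775214-156775513 with the match at -161 and Cnn2 at chr10:79988350-79988649 with the match at -56.
Myl9 promoter: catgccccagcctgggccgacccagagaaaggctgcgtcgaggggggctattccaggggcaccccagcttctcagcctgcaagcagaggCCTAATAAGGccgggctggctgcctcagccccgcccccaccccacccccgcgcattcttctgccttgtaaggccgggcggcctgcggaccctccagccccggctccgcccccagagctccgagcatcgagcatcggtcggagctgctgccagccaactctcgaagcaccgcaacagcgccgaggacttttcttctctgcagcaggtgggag
Cnn2 promoter: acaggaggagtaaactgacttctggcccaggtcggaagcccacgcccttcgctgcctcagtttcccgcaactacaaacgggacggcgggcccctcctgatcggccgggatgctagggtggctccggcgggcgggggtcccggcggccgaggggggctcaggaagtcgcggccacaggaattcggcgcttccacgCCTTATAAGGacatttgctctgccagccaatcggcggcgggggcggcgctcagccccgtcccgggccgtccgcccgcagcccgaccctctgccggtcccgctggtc
The box was searched on both strands only as the exact pattern CCWWWWWWGG, with W for A or T, so forms with a mismatch were not counted. It was found in 5 of the 18 actomyosin genes with an entry (Actc1, Cnn2, Myl9, Srf and Vcl). That was 26.3% of their promoters, against 1.63% of all promoters. Because the list is one of SRF and YAP targets, this share can follow from how it was put together and is a description only. Of those 5, Cnn2 and Myl9 fell, Srf and Vcl did not pass, and Actc1 was not tested. The other 13, with Acta2 and Tpm1 that fell among them, had no match to the exact pattern in this window. That does not mean that they lack an SRF element. Myl9, a regulatory myosin light chain, read 1.22, 6.45, 8.15, 3.53 and 3.13 CPM in 2i-LIF and 46.4, 11.1, 45.3, 8.90 and 83.2 CPM in FBS-LIF with dox. Cnn2, a calponin that binds actin, read 34.2, 32.2, 26.8, 37.0 and 20.3 CPM against 208, 104.7, 298, 205 and 292 CPM. Neither overlapped, although Myl9 came close where OKMS serum libraries were low. The differences were -2.59 ± 0.51 (adjusted p 0.00222) and -2.78 ± 0.25 (adjusted p 1.45e-06).

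Extracellular matrix genes fell with them, 10 lower and 0 higher of 18 tested, with a median of -1.90. Col4a1 and Col4a2, the basement membrane collagens, fell from 132 ± 45.6 to 9.24 ± 6.04 CPM and from 47.0 ± 13.3 to 4.65 ± 2.77 CPM. Col6a1 fell from 26.6 ± 15.1 to 0.939 ± 2.10 CPM and the laminin chain Lamb1 from 95.4 ± 20.96 to 19.1 ± 4.21 CPM. Of 6 mesenchymal transcription factors tested, 2 fell, beside 6.32% of all genes tested, and Snai2, Twist2, Zeb2 and Foxc2 were not tested. Prrx1 was at 0 in all 2i-LIF libraries against 9.47 ± 5.99 CPM, at least 12.0-fold lower with the 2i-LIF arm set at 3 reads in all (0.787 CPM). A gene at 0 in that arm entered the test only if all 5 FBS-LIF libraries reached 1 CPM, which favours calls among tested members. The 14 fibroblast and myofibroblast markers summed to 19.3 to 42.2 CPM in 2i-LIF and 160 to 838 CPM in FBS-LIF with dox, and 5 of 9 tested fell. Acta2 and Tagln belong to both this list and the actomyosin list. Col1a2, Dcn, Lum, Postn and Pdgfra did not reach 1 CPM in 5 of the 10 libraries and were not tested. The part of such cells in the falls was not tested.

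A list of S100, annexin and galectin genes, calcium-binding and membrane-associated proteins of many differentiated cells, also holds the surface and filament genes Vim, Cd44, Thy1 and Ly6 members. Of its 22 tested members, 14 fell and 2 rose, with a median of -1.96, and Vim, Cd44 and Ly6c1 were among those that fell. S100a6 read 56.2, 131, 106, 65.2 and 147 CPM in 2i-LIF and 4547, 2343, 2077, 1085 and 2693 CPM in FBS-LIF with dox. The lowest serum library was several times above the highest 2i-LIF library, and the difference was -4.59 ± 0.25 (adjusted p 7.15e-09). Anxa2, a membrane-binding annexin, read 25.6, 10.7, 16.3, 44.1 and 36.0 CPM against 574, 174, 430.4, 504 and 574 CPM. OKMS at day 20 was the lowest serum library, with no overlap, and the difference was -4.08 ± 0.19 (adjusted p 1.28e-09). S100a10, the partner of Anxa2, fell from 496 ± 187 to 81.7 ± 9.31 CPM. Anxa3 fell from 154 ± 67.4 to 3.06 ± 3.85 CPM, S100a4 from 53.9 ± 55.6 to 0.546 ± 0.760 CPM, the intermediate filament gene Vim from 566 ± 283 to 153 ± 25.7 CPM and Lgals1 from 136 ± 64.2 to 27.4 ± 8.52 CPM. S100a13 moved the other way, from 36.5 ± 25.8 to 123 ± 62.9 CPM.

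Epithelial genes fell as well, although Cdh1, the adhesion protein of epithelial and pluripotent cells, did not pass. Of 18 tested, 11 fell and 0 rose, with a median of -2.40. Epcam, a cell surface adhesion protein, read 55.0, 54.8, 30.3, 70.5 and 42.2 CPM in 2i-LIF and 212, 211, 345, 484 and 282 CPM in FBS-LIF with dox. Krt18, a keratin of simple epithelia, read 7.33, 5.37, 4.66, 12.3 and 17.2 CPM against 237, 97.3, 349, 202 and 128 CPM. Esrp1, a regulator of epithelial splicing, read 0, 0, 0, 1.76 and 1.56 CPM against 17.9, 11.1, 24.4, 20.8 and 23.05 CPM. None of the 3 overlapped between arms, and their differences were -2.56 ± 0.21 (adjusted p 5.63e-07), -4.30 ± 0.33 (adjusted p 2.08e-07) and -3.74 ± 0.46 (adjusted p 3.17e-05). The embryonic stem cells held Epcam at 60.2 CPM in R9 and 75.2 CPM in R10 and Krt18 at 6.57 CPM in R9 and 9.81 CPM in R10. Krt8, the partner of Krt18, fell from 119 ± 82.7 to 11.1 ± 5.26 CPM and the claudin Cldn6 from 96.0 ± 57.1 to 5.66 ± 3.00 CPM. Cdh1 averaged 106 ± 28.9 against 107 ± 34.0 CPM (adjusted p 0.994). The 8 epithelial and keratinocyte markers summed to 59.4 to 98.5 CPM in 2i-LIF and 210 to 901 CPM in FBS-LIF with dox, with 4 of 6 tested lower, and their part was not tested.

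Summed markers of several other cell types were lower in 2i-LIF too. The counts of members below stand beside the 6.32% of all genes tested that were called lower. Neuron markers (9 genes) summed to 227 to 351 CPM against 700 to 1069 CPM, and 3 of 7 tested fell (Map2, Stmn2 and Gap43). Tubb3, Syp, Elavl3 and Elavl4 did not pass, and Rbfox3 and Snap25 were not tested. Astrocyte markers (10 genes) summed to 45.4 to 120 against 135 to 555 CPM, with 4 of 6 lower (Clu, Aldoc, Gja1 and Fgfr3). Gfap and C3 did not pass, and Aqp4, S100b, Slc1a2 and Lcn2 were not tested. Neural progenitor markers (13 genes) overlapped between arms, at 10.6 to 72.0 against 33.2 to 114 CPM, with 3 of 8 lower. Their sum was lower in 2i-LIF within every pair. Primitive endoderm markers (7 genes) summed to 10.9 to 26.4 against 28.2 to 122 CPM, with 3 of 5 lower. Trophoblast markers (6 genes) also overlapped, at 33.0 to 43.8 against 28.2 to 66.5 CPM, with 3 of 5 lower. In the OKS day 18 pair their sum was higher in 2i-LIF, at 43.8 against 28.2 CPM. Single genes with large falls included Trh, the thyrotropin-releasing hormone precursor, from 471 ± 529.9 to 5.47 ± 4.67 CPM. Its serum libraries ran from 43.0 to 1365 CPM. Embryonic stem cells held Trh at 10.3 CPM in R9 and 154 CPM in R10 (SD 133). Tm4sf1 fell from 141 ± 164 to 1.02 ± 1.02 CPM and Aldh3a1, an aldehyde dehydrogenase, from 136 ± 111 to 1.85 ± 1.76 CPM. The protease inhibitor Spink1 fell from 74.9 ± 72.8 to 0.233 ± 0.521 CPM. Plac8 had no read in any 2i-LIF library against 31.2 ± 7.94 CPM, at least 39.6-fold lower.

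**Figure D3:**
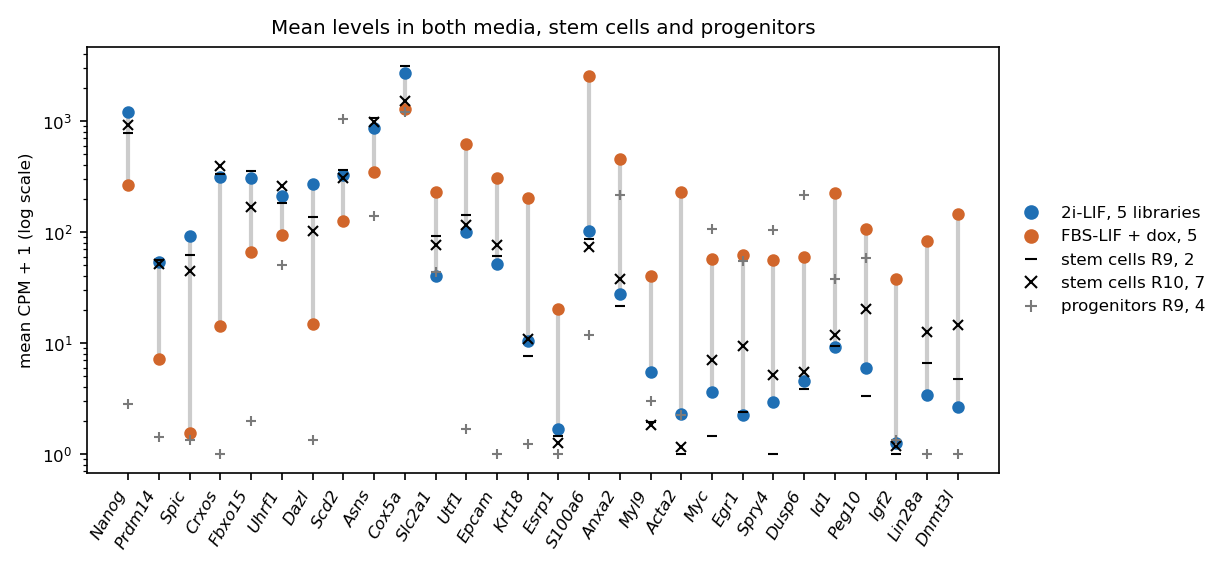
Mean CPM + 1 on a log axis of 28 genes in 2i-LIF (5 libraries), FBS-LIF with dox (5 libraries), embryonic stem cells in R9 (2) and R10 (7) and neural progenitors in R9 (4). For Acta2 and S100a6 the FBS-LIF mean, 228 and 2549 CPM, lies above the means of both reference cell types.

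The embryonic stem cells, in the same medium, were nearer on the log2 scale to the 2i-LIF mean than to the FBS-LIF mean in both chemistries for 635 of the 888 genes that rose (71.5%) and 668 of the 944 that fell (70.8%). The share was 35.4% of the 13103 genes that were not called and 39.8% of all genes tested. In R9 alone the counts were 754 of those that rose, 800 of those that fell and 7860 of those not called. In R10 alone they were 705, 768 and 7480. Genes not called mostly have a small gap between the arms, so noise can decide which mean is nearer. The contrast with them therefore depends on the call itself, and the shares are a description only. Stem cells were R9 and R10 libraries of their own, but share the medium with the 2i-LIF arm.

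Some lipid, amino acid and glycolysis genes passed the test, and most members of each list did not. The counts stand beside the 5.95% of all genes tested that were called higher and the 6.32% called lower. Of 32 sterol and lipid synthesis genes tested, 10 rose and 0 fell, with a median of 0.77, but without the OKMS day 20 pair only 4 rose. Scd2, a fatty acid desaturase, read 319, 328, 291, 359.7 and 332 CPM in 2i-LIF and 116, 54.2, 143, 151 and 152 CPM in FBS-LIF with dox. It was higher in every pair with no overlap, and OKMS at day 20 was the lowest serum library. The difference was 1.48 ± 0.20 (adjusted p 8.45e-05). Scd1, a desaturase of the same family, rose from 59.3 ± 23.9 to 168 ± 21.6 CPM.

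A list of threonine, glycine and serine genes also holds genes of the amino acid stress response, such as Atf4 and Ddit3. Of its 21 tested members 5 rose and 0 fell, with a median of 0.64, and 2 rose without the OKMS day 18 pair. Of the 5, Tdh and Amt act on threonine and glycine, while Asns makes asparagine, Chac1 breaks down glutathione and Trib3 is a pseudokinase of the stress response. Asns read 896, 867, 964, 908 and 696 CPM in 2i-LIF and 259, 358, 563, 261 and 296 CPM in FBS-LIF with dox. The arms did not overlap, OKS at day 20 was the highest serum library, and the difference was 1.37 ± 0.17 (adjusted p 2.53e-05). Amt, of the glycine cleavage system, rose from 34.3 ± 13.2 to 96.8 ± 19.9 CPM. Tdh, the threonine dehydrogenase of mouse pluripotent cells, rose from 361 ± 237 to 716 ± 168 CPM with overlapping arms. Its difference was 0.96 without the OKMS day 18 pair. In limma it did not pass without the replicate block (adjusted p 0.0809) or in R9 alone (adjusted p 0.0617).

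Of 18 glycolysis genes tested, 6 fell and 0 rose, with a median of -0.70. That median was 0.16 in the OKMS day 20 pair and -0.97 to -0.74 in the other pairs. Slc2a1, the glucose transporter Glut1, read 50.1, 51.6, 30.3, 26.4 and 37.5 CPM in 2i-LIF and 303, 128, 405, 177 and 131 CPM in FBS-LIF with dox. It was lower in every pair without overlap, by -2.41 ± 0.26 (adjusted p 8.69e-06). Ldha, lactate dehydrogenase A, fell from 2450.2 ± 609 to 1014 ± 165 CPM, Pfkl from 279 ± 112 to 66.03 ± 20.8 CPM and Pdk1, which restrains pyruvate oxidation, from 58.9 ± 24.9 to 6.97 ± 5.26 CPM. Of 42 oxidative phosphorylation subunits, Cox5a alone rose and 0 fell, with a median of 0.17. Cox5a read 2715, 2881, 3658, 2052 and 2154 CPM against 1299.9, 1401, 1431, 1187 and 1036 CPM. The arms did not overlap and the difference was 1.06 ± 0.15 (adjusted p 8.41e-05), or 0.99 without the OKS day 20 pair.

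The cell cycle and p53 lists are read against the 12.3% called among all genes. Of 20 mitosis genes tested, 0 passed in limma or edgeR, with 3 at an unadjusted p under 0.05 in limma, and the median was 0.02. Of 16 G1 cyclins and inhibitors, Ccnd2, a D-type cyclin, fell from 375 ± 451 to 10.1 ± 8.88 CPM and the inhibitor Cdkn1c from 48.3 ± 32.5 to 6.06 ± 2.31 CPM. Of 16 p53 targets, Gdf15, a stress-induced cytokine, rose from 10.7 ± 10.3 to 39.9 ± 3.696 CPM, while 3 fell, among them the apoptosis genes Bbc3, from 35.5 ± 13.6 to 10.2 ± 2.51 CPM, and Perp, from 112 ± 30.4 to 16.9 ± 8.12 CPM. Of 12 interferon and MHC class I genes tested, 4 fell and 0 rose, with a median of -0.68 overall and 0.55 in the OKMS day 20 pair.

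Among imprinted genes, expressed from a single parental allele, 9 were lower and 2 higher of 21 tested, with a median of -0.35. Of all genes tested, 6.32% were called lower and 5.95% higher. Igf2, a growth factor, read 1.22, 0, 0, 0 and 0 CPM in 2i-LIF and 67.5, 11.1, 58.2, 25.2 and 21.8 CPM in FBS-LIF with dox. A single read was found over the 2i-LIF arm against 188, a ratio of 156 (95% exact interval 27.6 to 6183, counting error only), and the fitted difference was -4.73 ± 0.46 (adjusted p 2.94e-06). Peg10, a retrotransposon-derived placental gene, read 3.66, 5.37, 4.66, 3.53 and 7.82 CPM against 99.2, 192, 170.3, 37.1 and 26.9 CPM. It was low in all 2i-LIF libraries, and the R10 serum libraries were lower than the R9 ones. Its difference was -3.80 ± 0.41 (adjusted p 7.57e-06). Phlda2, which limits placental growth, fell from 166 ± 53.8 to 27.8 ± 13.03 CPM and Snrpn, a splicing protein gene, from 313 ± 139.6 to 95.3 ± 22.7 CPM.

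Of 562 annotated lncRNAs tested, 49 rose and 24 fell, so 13% were called, against 12.8% of 12205 protein-coding genes. Tunar, a lncRNA of pluripotent and neural cells, read 22.0, 26.9, 23.3, 28.2 and 32.8 CPM in 2i-LIF and 3.17, 1.23, 2.87, 1.48 and 3.84 CPM in FBS-LIF with dox. The arms were far apart and each was tight, with a difference of 3.02 ± 0.39 (adjusted p 5.24e-05). The largest rises among lncRNAs were those of Srrm4os, from 3.88 ± 3.52 to 58.9 ± 21.5 CPM, Gm40977, from 9.26 ± 9.25 to 90.2 ± 6.98 CPM, Gm13580, from 2.83 ± 2.31 to 42.8 ± 6.55 CPM, Gm53 and 2410003I16Rik. The largest falls were those of Gm43126, which overlaps Ccnd2 and could share its reads, from 66.1 ± 64.8 to 2.45 ± 2.63 CPM, Morrbid, from 26.3 ± 14.1 to 1.09 ± 1.86 CPM, Gm28625, Mir100hg and 2010204K13Rik. Platr3, named for its link to pluripotency, rose from 25.9 ± 22.1 to 97.0 ± 20 CPM. Neat1, the scaffold of paraspeckles, read 0, 1.07, 0, 37.0 and 32.8 CPM in 2i-LIF and 10.6, 4.93, 12.9, 111 and 62.7 CPM in FBS-LIF with dox. The arms overlapped, and the R10 libraries of each arm were above its R9 ones. Its difference was -2.26 ± 0.46 (adjusted p 0.0027), which did not pass without the replicate block (adjusted p 0.243) or in R10 alone (adjusted p 0.147).

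Of 576 unannotated antisense genes 44 rose and 10 fell (9.38% called), and of 463 other unannotated genes 64 rose and 9 fell (15.8%), against 12.3% of all genes. The antisense gene at Hydin averaged 65.6 ± 10.5 CPM in 2i-LIF against 1.46 ± 1.13 CPM (novelGene_Hydin_AS), and that at Oas1f 32.5 ± 12.3 against 0.390 ± 0.564 CPM (novelGene_Oas1f_AS). The antisense gene at Zdhhc14 averaged 23.2 ± 3.39 against 0.256 ± 0.573 CPM (novelGene_Zdhhc14_AS). The antisense gene at Spry4 fell from 17.4 ± 17.2 to 0.313 ± 0.700 CPM (novelGene_Spry4_AS) together with Spry4 itself. With overlapping arms, novelGene_6586 fell from 33.3 ± 19.9 to 3.13 ± 3.10 CPM and the antisense gene at Peg10 from 12.8 ± 9.44 to 0.907 ± 0.916 CPM (novelGene_Peg10_AS). Whether counting used the strand is not stated, so reads of a gene and its antisense partner may not be told apart.

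The effect of the medium differed between the OKMS and OKS systems for 8 of 14935 genes (0.0536%), 7 with a more positive and 1 with a more negative difference in OKS, while 872 had an unadjusted p under 0.05 and edgeR called 63. Stra8, a gene of meiotic entry induced by retinoic acid, read 48.9, 54.8, 80.3, 84.6 and 87.6 CPM in 2i-LIF and 28.5, 14.8, 2.16, 53.4 and 1.28 CPM in FBS-LIF with dox. The 2i-LIF libraries of the systems overlapped, and in serum the 3 OKMS libraries were high and both OKS libraries near the level of a few reads. The difference of differences, OKS minus OKMS, was 3.91 ± 0.56 (SE) (adjusted p 0.0154). Pim2, a serine/threonine kinase, read 12.2, 12.9, 12.8, 12.3 and 7.82 CPM in 2i-LIF and 42.2, 24.6, 189, 20.8 and 252 CPM in FBS-LIF with dox. Here the 2i-LIF libraries again overlapped and both OKS serum libraries were the high ones, with a difference of differences of -3.21 ± 0.57 (SE) (adjusted p 0.046).

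For the other 6 genes, too, both OKS serum libraries were below the OKMS ones. Fkbp6, a germ cell co-chaperone of the piRNA pathway, held 2.16 and 6.402 CPM in the OKS serum libraries and 16.9 to 66.8 CPM in the OKMS ones, a difference of differences of 3.94 ± 0.47 (SE) (adjusted p 0.00213). Its 2i-LIF libraries did not overlap between systems either, at 196 and 197 CPM in OKS and 46.4, 172 and 168 CPM in OKMS. Rhox5, an X-linked homeobox gene, held 37.4 and 15.4 CPM against 117 to 307 CPM, with 2.62 ± 0.39 (SE), and Calcoco2 held 7.19 and 3.84 CPM against 24.3 to 44.3 CPM, with 3.04 ± 0.49 (SE). Xlr3a, a member of an X-linked family of near-identical copies, gave 3.21 ± 0.54 (SE) and Gm32885 3.20 ± 0.50 (SE). Gm5039, with 3.89 ± 0.68 (SE), was also spread in 2i-LIF, from 7.05 to 78.2 CPM. Each system had 2 or 3 pairs, and without the OKS day 20 or the OKMS day 18 pair 0 genes were called, without the OKS day 18 pair 1, without the OKMS day 14 pair 13 and without the OKMS day 20 pair 5.

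**Figure D4:**
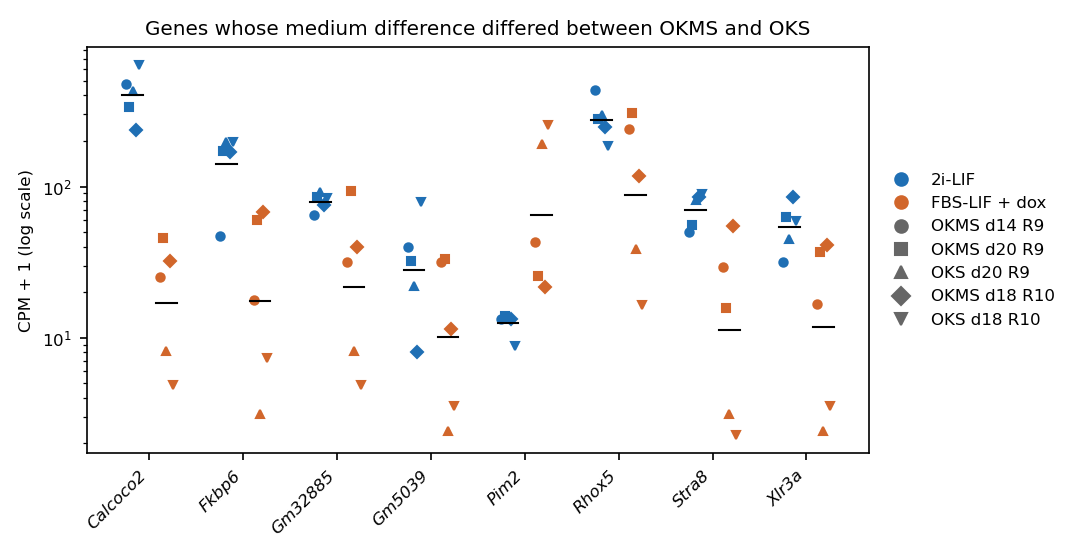
CPM + 1 on a log axis of the 8 genes whose medium difference differed between OKMS and OKS, in each of the 10 libraries, with colour for the medium, marker shape for the pair and a bar at the mean of the log2 values. In FBS-LIF with dox both OKS libraries (triangles) lie apart from the OKMS libraries, above them for Pim2 and below them for the other 7.

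Transcript usage, the share of each transcript in the TPM of its gene, was tested in 4184 genes with 16253 transcripts. No gene passed (0 of 4184, 0%) at an adjusted p under 0.05 with a change of at least 10 points, and 317 had an unadjusted p under 0.05. Genes entered from 5 TPM in each library, where shares rest on few reads, so changes in usage could have been missed. A fit without the pairs called 4 genes (Fbxo36, Gatb, Lsr and Map1b), R9 alone 2, and diffSplice of limma 65 of 6604 genes, with 775 at an unadjusted p under 0.05. Inclusion of single exons, added after the data had been seen, was tested for 6146 exons of 1776 genes, and 0 passed (0%), with 545 at an unadjusted p under 0.05.

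The exons described next were chosen after their values were seen, from a list of genes with epithelial splicing, and carry no call. Exons were tested from 5 TPM of spanning transcripts in each library, so a percentage may rest on few reads. Values of 0 or 100% need not mean full skipping or full inclusion. Actn1, which encodes the actin cross-linker alpha-actinin, has a pair of alternative exons within the part that encodes its EF hands. They lie on the minus strand of mm10 at chr12:80170183-80170248 (66 bases) and chr12:80170686-80170766 (81 bases), both coding, and are printed here 5′ to 3′ on that strand because their inclusion differed in the same direction in all 5 pairs.
Actn1 66-base exon: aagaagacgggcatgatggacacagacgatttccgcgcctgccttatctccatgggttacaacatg
Actn1 81-base exon: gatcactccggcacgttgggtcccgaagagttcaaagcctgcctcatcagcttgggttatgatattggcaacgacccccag
Inclusion of the 66-base exon was 74.6, 86.2, 86.5, 87.3 and 100% in 2i-LIF and 56.6, 45.8, 53.9, 76.3 and 58.2% in FBS-LIF with dox. It was higher in 2i-LIF in 5 of 5 pairs, with 1 serum library (OKMS at day 18) above the lowest 2i-LIF library. The means were 86.9% ± 9 and 58.2% ± 11.2 (p 0.00651, adjusted p 0.54). Inclusion of the 81-base exon was 15.8, 1.84, 13.5, 12.7 and 0% against 36.6, 38.7, 31.7, 36.8 and 30.3%, with no overlap and means of 8.75% ± 7.27 and 34.8% ± 3.62 (p 0.00299, adjusted p 0.54). Embryonic stem cells included the 66-base exon at 70.5% in R9 and 79.3% in R10, and progenitors at 2.02 and 7.60%. For the 81-base exon the same groups gave 20.3 and 18.8% and then 98.0 and 97.9%.

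Rps24, a ribosomal protein gene with short alternative exons near its stop codon, gave 48.7, 66.3, 57.2, 75.4 and 69.6% inclusion of a non-coding 20-base exon (chr14:24495430-24495449, plus strand) in 2i-LIF and 36.6, 28.6, 36.2, 61.2 and 51.0% in FBS-LIF with dox. It was higher in 5 of 5 pairs, although the arms overlapped, with means of 63.4% ± 10.6 and 42.7% ± 13.1 (p 0.0191, adjusted p 0.54).

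**Figure D5:**
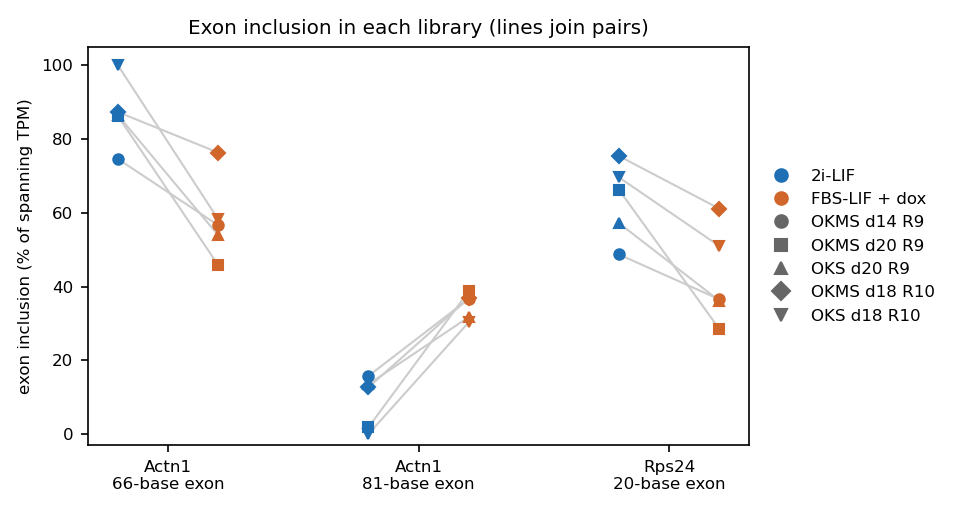
Inclusion in percent of the TPM spanning each exon, for 2 exons of Actn1 and 1 of Rps24, in each of the 10 libraries, with lines joining the 2 media of a pair. All 5 lines fall for the 66-base and 20-base exons and rise for the 81-base exon from 2i-LIF to FBS-LIF with dox, and no exon passed the adjusted test.

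No transcript class differed between media past the test in its share of TPM. Full-splice matches of annotated transcripts took 53.9 ± 2.51% of TPM in 2i-LIF and 54.1 ± 3.89% in FBS-LIF with dox (SD, n = 5), with an exact sign-flip permutation p of 1. Transcripts with new splice sites took 19.4 ± 3.28% and 18.4 ± 3.39%, higher in 4 of 5 pairs (exact sign-flip p 0.125). Fusion transcripts, which join neighbouring genes, were 0.114 points higher in 2i-LIF (5 of 5 pairs) and transcripts with predicted nonsense-mediated decay differed by -0.126 points (lower in 5 of 5 pairs). Both reached the two-sided exact sign-flip p of 0.0625, the smallest that 5 pairs allow, so this test cannot fall below 0.05, and over the 13 classes no adjusted p was under 0.348.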

How the data were processed

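Gene values were deposited as CPM and transcript values as TPM, per the file headers. Per the submitters' processing notes, minimap2 2.24-r1122 and mm10 were used. Strand use and counter are not given in the sources used here. The authors' transcript table gives each transcript's class and exons. Gene positions are GENCODE M21, and promoters RefSeq GRCm38.p6. The table had 23575 gene rows, 20 of which have a number for a name and are not named here, and 13 columns matched no sample and were not used.

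Genes with at least 1 CPM in 5 of the 10 libraries were tested with limma 3.58.1 (R 4.3.3, trend) on log2(CPM + 1), with pair as a block and Benjamini-Hochberg adjustment over all genes. A gene at 0 throughout an arm thus entered only if all 5 libraries of the other arm reached 1 CPM. This favours calls among such genes and in counts of tested members. All CPM values were whole multiples of 1 read (100% within 0.02), and these reads went to edgeR 4.0.16 and DESeq2 1.42.0 as alternatives. Usage was tested on arcsine square root shares with a Simes p per gene, for genes of at least 5 TPM in each library and transcripts of at least 5% mean share. Exon inclusion was the share of a gene's TPM, among transcripts spanning an exon, that held it. Scripts were tested on simulated data.

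The pairs come from the labels. Deviations of the 2 libraries of a pair correlated at 0.160 to 0.357. In each R9 pair, however, the 2i-LIF library correlated better with the FBS-LIF library of another pair. Within a chemistry the correlations were -0.0735 to 0.0943, so the pairs share mainly chemistry. Genes were named as the 4 factors, the 12 protein-coding, 5 lncRNA and 3 unannotated genes with the largest called differences of the same sign in all pairs in each direction (mean of at least 10 CPM, or 2 for non-coding), members of lists, and genes called for the interaction. Members and lists were chosen with earlier results of these data known. Alternatives were other pseudocounts, filters, scalings, tools, blocks, chemistries, systems and leaving out each pair, and, chosen after seeing the data, exon inclusion and stricter usage filters.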

Additional observations from a re-analysis of the deposited data

Results flagged for a closer look

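Among 35 genes with all libraries given, 70 arms were checked for a library that stood apart, and 3 were found, where chance alone gives about 1 in 20. Spry4 in the 2i-LIF library OKMS d18 R10 was 7.05 CPM, against at most 1.56 CPM in the other 4. Igf2 in the 2i-LIF library OKMS d14 R9 was 1.22 CPM, which is a single read, against 0 in the others. Pim2 in the 2i-LIF library OKS d18 R10 was 7.82 CPM, below 12.2 to 12.9 CPM in the other 4.

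For 8 genes the effect of the medium differed between systems by the interaction term, with differences of differences, OKS minus OKMS, of 3.04 for Calcoco2, 3.94 for Fkbp6, 3.20 for Gm32885, 3.89 for Gm5039, -3.21 for Pim2, 2.62 for Rhox5, 3.91 for Stra8 and 3.21 for Xlr3a. The main effect of Gm32885 lost its call without the OKS day 20 pair (adjusted p 0.0766) and without the OKS day 18 pair (0.0569), and that of Rhox5 without the OKS day 20 pair (0.0537).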

How the results depend on the processing

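The count of 1832 genes stayed within 1.5 times under 15 of 19 alternatives. It was 801 with OKMS pairs only and 2298 with OKS pairs only, 1355 of the latter shared with the 1832. R9 only gave 1166 and R10 only 188. With each pair left out in turn the count was 1210 to 1908, lowest without OKS day 20. Without the replicate block it was 1392, or 1805 with chemistry in its place. R9 alone gave 527 after quantile normalization and 594 to 1602 with a pair left out. R10 alone gave 0 at a pseudocount of 0.25, 0 after quantile normalization and 811 in edgeR. The chemistry interaction gave 4 in edgeR. The system interaction gave 2 at a pseudocount of 0.25, 63 in edgeR and 13, 5, 0, 0 and 1 when each pair was left out in the order above. Transcript usage gave 4 without the replicate block, 2 in R9 and 65 with diffSplice. With a pair left out, sterol genes rising numbered 4 to 11 and threonine, glycine and serine genes 2 to 7. The difference in full-splice matches (-0.135 points) ranged from -0.563 to 0.577 with a pair left out (0.137 without OKMS day 14, 0.577 without OKS day 20) and was 1.57 in R10. Over 124 named genes, 22 of 2351 combinations of a gene and an alternative turned sign, all in genes that were not called. Sox2 gave 0.0553 after median centring, 0.00300 with thinned reads, 0.119 in OKMS, 0.549 in R10 and 0.0265 and 0.190 without OKMS day 14 or OKS day 20. Pou5f1 gave -0.0852 in OKS and -0.0803 without OKMS day 14, and Gm5039 -0.0646 in OKMS. Cdh1 gave -0.0257 after quantile normalization, -1.30e-04 in edgeR, -0.00998 in DESeq2, -0.00337 with thinned reads, -0.413 in OKS, -0.147 in R10 and -0.0579, -0.128 and -0.0121 without OKMS day 14, day 20 or day 18. Dppa3 gave -4.88e-04 with thinned reads, -0.00757 in OKMS, and -0.0401 and -0.245 without OKMS day 20 or OKS day 18. Of called named genes, 47 lost the call in R10 alone, 9 in OKMS, 7 in R9, 5 without the block, 3 in DESeq2, 2 in OKS and at most 3 with a pair left out. The partial fits have fewer pairs, and the causes of these differences were not tested. Shallow libraries limit genes near a single read.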
